A study of Mus musculus with 16 samples.

Results

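The transcripts of 8 complement genes were followed across the cell types of the mouse lung: the recognition genes C1qa, C1qb and C1qc, the components C4b, C3 and Cfb, and the receptors C3ar1 and C5ar1. They were taken by gene symbol from the deposited count matrix, and all 8 were found among its 38003 genes. Live cells sorted from dissociated whole mouse lungs had been sequenced after treatment with vehicle, with 6-OHDA, a toxin that destroys the sympathetic nerve terminals that take it up, or with BIBO3304, which blocks NPY1R, a receptor of the sympathetic transmitter neuropeptide Y. Lungs of each treatment came with and without cells of a pancreatic ductal adenocarcinoma (PDAC), seeded there. The matrix held 80449 cells of 15 samples: 3 of vehicle, 3 of 6-OHDA and 3 of BIBO3304 without PDAC cells, and 2 of each with them, written with -PDAC after the treatment. The sources used here do not give strain, age, dose or times, or say that each numbered sample is another mouse, so p-values measure only the spread between these samples.

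Complement is a cascade of plasma and tissue proteins that marks targets for uptake by phagocytes. C1q, built of the chains encoded by C1qa, C1qb and C1qc, recognises antibody-coated and dying cells and starts the classical pathway, in which C4 is cleaved before C3. C3 is the step at which all pathways meet, factor B (Cfb) forms the enzyme that amplifies C3 cleavage in the alternative pathway, and the released fragments C3a and C5a act on the receptors encoded by C3ar1 and C5ar1, mainly on myeloid cells. Much of the plasma protein comes from the liver, whereas tissue macrophages are a main source of C1q.

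C1qb, C1qc, C3ar1 and C5ar1 are the 4 members that fell with seeding in interstitial macrophages under both drugs, in the results given further on, so the 250 bases before their start sites are shown. They are RefSeq sequences of GRCm38.p6, 5′ to 3′ in the direction of the genes, which lie on the minus strand, at chr4:136886201-136886450, chr4:136892915-136893164, chr6:122856158-122856407 and chr7:16259339-16259588 in that order. Capitals mark GAGGAA, the core of the box bound by the myeloid factor PU.1, or TTCCTC, the same letters on the other strand.
C1qb: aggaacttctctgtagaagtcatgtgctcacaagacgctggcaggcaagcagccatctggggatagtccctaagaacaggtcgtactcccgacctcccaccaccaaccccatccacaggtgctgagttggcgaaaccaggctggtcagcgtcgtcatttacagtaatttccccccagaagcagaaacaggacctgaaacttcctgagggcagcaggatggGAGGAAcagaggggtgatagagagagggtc
C1qc: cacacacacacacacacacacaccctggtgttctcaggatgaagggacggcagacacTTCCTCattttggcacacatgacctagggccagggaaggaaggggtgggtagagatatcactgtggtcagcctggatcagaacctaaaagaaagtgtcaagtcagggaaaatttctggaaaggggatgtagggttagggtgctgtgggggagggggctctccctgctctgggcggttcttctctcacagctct
C3ar1: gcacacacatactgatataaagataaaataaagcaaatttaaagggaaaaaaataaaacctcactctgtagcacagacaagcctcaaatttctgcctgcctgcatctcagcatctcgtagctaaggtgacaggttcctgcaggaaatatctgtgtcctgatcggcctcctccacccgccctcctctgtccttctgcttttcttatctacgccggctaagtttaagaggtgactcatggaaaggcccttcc
C5ar1: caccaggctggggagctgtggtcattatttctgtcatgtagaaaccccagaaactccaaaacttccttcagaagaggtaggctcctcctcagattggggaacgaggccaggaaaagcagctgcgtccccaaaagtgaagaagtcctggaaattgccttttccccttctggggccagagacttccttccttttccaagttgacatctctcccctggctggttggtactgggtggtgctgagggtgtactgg
The letters stood at -30 from the start site in C1qb and at -193 in C1qc, and these windows of C3ar1 and C5ar1 held none. On either strand, GAGGAA was present in 23.3% of the 32851 windows of this length. The STAT-type motif TTCNNNGAA, also searched on both strands and present in 7.02% of windows, was not found in these 4. A match is a description of the letters only.

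Each sample held 10003796 to 32580698 transcripts, with a median of 2307 per cell over all cells, and the deposited annotation has 22 cell types. Depth differed with seeding: the median per cell was 2631, 4846.5 and 3534 in BIBO3304 1, 2 and 3, but 2417 and 1623 in BIBO3304-PDAC 1 and 2. In the vehicle and 6-OHDA arms the seeded samples had the higher medians. The part of depth in the results on the members was not tested. Of 312 annotated cancer cells, 308 lay in samples marked as seeded and the other 4 in the unseeded vehicle samples (2, 1 and 1). The sample labelled vehicle-PDAC 2 held 0 cancer cells of 9157 (a count of 0 allows up to 0.0328%), so calls that rest on it are given with and without it. Each of 24 marker lists was highest in the type or family it names. The classical monocyte list was close in monocytes and interstitial macrophages, at mean log2(CPM + 1) of 7.04 and 6.76, and the cancer cell list in cancer and ciliated cells, at 5.67 and 5.51.

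Levels are counts-per-million (CPM) of the transcripts of a cell type in a sample, with library sizes scaled by the trimmed mean of M values (TMM), in samples with at least 20 cells of the type. C1qa, C1qb and C1qc were concentrated in interstitial macrophages, the macrophages of the lung tissue outside the airspaces. There C1qa had 286 ± 94.5 CPM, C1qb 154 ± 68.1 and C1qc 99.2 ± 42.0 (SD, n = 15). In the type next in order, the cancer cells, the means were 24.3 ± 11.2, 9.24 ± 5.10 and 10.1 ± 6.68 CPM (SD, n = 5). The lowest interstitial macrophage sample lay above the highest cancer cell sample for each of the 3 genes, while most types below the first place overlapped their neighbours in the order. Alveolar macrophages, which line the airspaces, had only 3.88 ± 3.76 CPM of C1qa. Because cell types are assigned from the cells' expression, these differences are descriptions and carry no test.

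In interstitial macrophages the means of the 3 chains ran from C1qa over C1qb down to C1qc, although C1qc lay above C1qb in vehicle 2 and 6-OHDA 2. Per kilobase of the longest coding transcript in GENCODE M21, C1qa had 275 ± 90.9 CPM, C1qb 142 ± 62.6 and C1qc 82.4 ± 34.9 (SD, n = 15). As a share of C1q transcripts, C1qa made up 53.3% ± 5.07, C1qb 28.4% ± 6.14 and C1qc 18.3% ± 3.85 (SD, n = 15). Interstitial macrophages held 66.3% ± 11.6 of a sample's C1qa transcripts, 73.0% ± 10.0 of its C1qb and 59.9% ± 11.6 of its C1qc, although they were only 1.57% to 13% of its cells.

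Shares of interstitial macrophages with a C1q transcript depend on depth and differed between samples. Pooled over samples, after each cell was thinned to 1000 transcripts, which left out 389 shallower cells, C1qa was seen in 18.3% of 2906 cells, C1qb in 10.8% and C1qc in 8.50%. Any of the 3 was seen in 27.8% and all 3 together in 1.38%. Without thinning, 42.4% of 3295 cells held any C1q transcript, from 29.9% and 33.0% in the samples of BIBO3304-PDAC to 53.5%, 68.9% and 64.8% in those of BIBO3304. T cells, which should lack C1q, had C1qa in 6 of 2293 thinned cells (0.262%), at a median of 1614.5 transcripts per cell before thinning against 2452 in interstitial macrophages. B cells had it in 1.72% of 1629 thinned cells. C3ar1 was seen in 8.05% of the thinned interstitial macrophages with C1q and in 1.86% of those without it, pooled over samples. Both genes also differed between samples. Thinned shares with C1q and C3ar1 were 38.8% to 49.4% and 6.61% to 13.2% in BIBO3304. They were 19.4% to 20.4% and 1.04% to 1.61% in BIBO3304-PDAC. The pooled contrast therefore mixes differences between samples with those between cells.

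**Figure D1:**
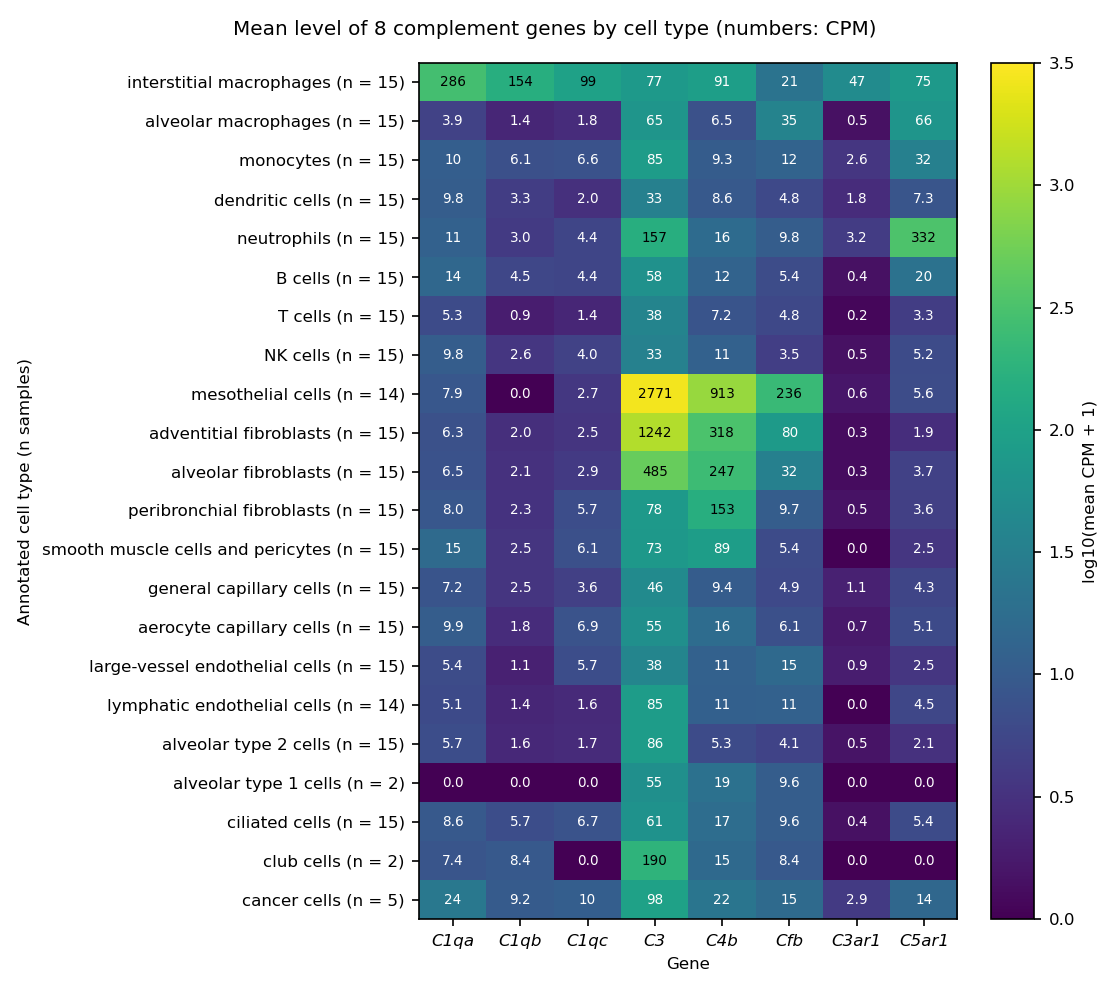
Mean level of the 8 genes in each annotated cell type. Rows are cell types with the number of samples, columns are genes, printed numbers are mean CPM and colour is log10(mean CPM + 1). C1q genes and C3ar1 peak in interstitial macrophages, C3, C4b and Cfb in mesothelial cells and fibroblasts, and C5ar1 in neutrophils.

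C4b, which encodes the component cleaved first in the classical pathway, was highest in mesothelial cells, the lining of the pleura, at 913 ± 285 CPM (SD, n = 14). Adventitial fibroblasts, which surround vessels and airways, had 318 ± 63.3 CPM and alveolar fibroblasts 247 ± 55.9 (SD, n = 15 each), and the samples of these 2 types overlapped. Alveolar fibroblasts held 57.8% ± 11.5 of a sample's C4b transcripts and mesothelial cells 7.36% ± 2.65. C4b has a near-identical copy, C4a, which was listed at 2.41 ± 4.28 CPM in mesothelial cells, and the sources used here do not say how reads were divided between the copies.

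C3, the central component, had the same leading types. Mesothelial cells ran from 1474 over a median of 2764 to 4790 CPM over 14 samples, adventitial fibroblasts from 879 over 1266 to 1565, and alveolar fibroblasts from 323 over 429 to 819 over 15 samples. The adventitial and alveolar fibroblast samples did not overlap. Neutrophils had 157 ± 60.6 CPM and every one of the 22 types had C3 above 30 CPM on average, with dendritic cells lowest at 32.8 ± 21.0. Alveolar fibroblasts held 40.6% ± 12.8 of a sample's C3 transcripts and adventitial fibroblasts 30.4% ± 7.66.

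Cfb, the protease of the alternative pathway, also led in mesothelial cells and adventitial fibroblasts. Mesothelial cells had 236 ± 105 CPM (SD, n = 14), adventitial fibroblasts 80.0 ± 13.4, alveolar macrophages 35.3 ± 30.4 and alveolar fibroblasts 32.0 ± 22.1 (SD, n = 15 each). Among alveolar macrophages BIBO3304 2 stood apart at 141 CPM, and the other 14 samples had 14.2 to 49.2 (median of all 15, 26.2). Alveolar macrophages held 42.2% ± 19.7 of a sample's Cfb transcripts and alveolar fibroblasts 21.9% ± 12.6. Cfb lies next to C2 on the same strand, so reads past the end of a gene could be counted to its neighbour, and the sources used here do not say whether strand was used in counting.

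The receptors split between myeloid types. C3ar1 was highest in interstitial macrophages, at 47.5 ± 29.5 CPM, with neutrophils next at 3.22 ± 5.45 (SD, n = 15 each). Interstitial macrophages held 68.2% ± 15.2 of a sample's C3ar1 transcripts and alveolar macrophages 8.93% ± 8.94. C5ar1 was highest in neutrophils at 332 ± 93.7 CPM, followed by interstitial macrophages at 75.1 ± 46.2, alveolar macrophages at 66.2 ± 6.87 and monocytes at 32.4 ± 15.9 (SD, n = 15 each). Interstitial and alveolar macrophages overlapped in C5ar1, and their spreads differed: from 22.5 to 195 CPM in the former and from 50.5 to 77.2 in the latter. Alveolar macrophages held 69.4% ± 13.2 of a sample's C5ar1 transcripts and neutrophils 10.5% ± 6.83.

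Seeding and treatment were compared within each type on counts summed per sample, with the quasi-likelihood test of edgeR over all genes that passed its filter on low counts. Adjusted p are Benjamini-Hochberg values over the genes of a type and comparison, the threshold was 0.05, and log2 fold changes carry their standard error (SE). C3 passed the filter in 17 types, C1qa, C4b and Cfb in 7 each, C5ar1 in 6, C1qb and C1qc in 4 each and C3ar1 in 1, which gave 53 tests of a member in a comparison, or 49 where a group lacked samples of a type. For seeding under BIBO3304 19 of 53 tests passed, 14 higher and 5 lower with PDAC cells, against 4.25% of all tests in that comparison (2.44% higher and 1.82% lower). Under 6-OHDA 6 of 49 passed, 2 higher and 4 lower, against 0.729% of all tests (0.246% higher and 0.484% lower). Under vehicle 0 of 53 passed, against 0.00176% of all tests, with 7 at an unadjusted p under 0.05 and 1 called by DESeq2, C3 in alveolar fibroblasts. The higher calls under BIBO3304 include C1qa, C1qb and C1qc in monocytes and C1qa in B cells. Each of these had only 2 to 4 transcripts over the 3 BIBO3304 samples. Pairs so low there passed the filter through other samples and could hardly come out lower with seeding. The count of higher calls was in part set by this.

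Few drug effects on the members passed the threshold. Without PDAC cells, 6-OHDA against vehicle gave 0 of 53 (0.0669% of all tests), with 1 at an unadjusted p under 0.05 and 0 by DESeq2. BIBO3304 against vehicle gave 1 of 53 (0.307% of all tests). With PDAC cells, 6-OHDA against vehicle gave 2 of 49 (0.405% of all tests), and BIBO3304 against vehicle gave 0 of 53 (0.0317% of all tests), with 13 at an unadjusted p under 0.05 and 0 by DESeq2. The test of whether a drug's effect differed with seeding gave 0 of 49 for 6-OHDA (0.00744% of all tests), with 8 at an unadjusted p under 0.05 and 0 by DESeq2, and 3 of 53 for BIBO3304 (0.413% of all tests, 1.06% in interstitial macrophages and 0.752% in alveolar fibroblasts, the types of the 3 calls). These comparisons share samples: the BIBO3304 samples without PDAC cells enter 3 of them, and the vehicle-PDAC samples 5.

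In interstitial macrophages C1qa, C1qb and C1qc fell with seeding under BIBO3304, and C1qb and C1qc also under 6-OHDA. C1qa had 425, 363 and 311 CPM in the 3 vehicle samples, 279, 304 and 267 with 6-OHDA and 384, 356 and 388 with BIBO3304. With PDAC cells it had 149 and 355 under vehicle, 179 and 170 under 6-OHDA, and 151 and 204 under BIBO3304. The seeded samples lay below their unseeded group in each drug arm, whereas vehicle-PDAC 2 lay among the vehicle samples. The thinned share of cells with any C1q did not overlap between vehicle (30.5% to 35.0%) and vehicle-PDAC (24.6% and 29.1%), and neither did the summed C1q level without TMM scaling, at 516 to 812 against 332 and 368 CPM.

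C1qa fell with seeding under BIBO3304 by 1.07 on the log2 scale (SE 0.285, edgeR adjusted p = 0.0132). Under 6-OHDA its log2 fold change was -0.70 (adjusted p = 0.127) and under vehicle -0.55 (adjusted p = 0.651), neither past the threshold. Without vehicle-PDAC 2, the only vehicle-PDAC sample that remained gave -1.29 (adjusted p = 0.0465), with its spread taken from the other groups. The BIBO3304 call did not hold without BIBO3304-PDAC 1 (adjusted p = 0.130) or without BIBO3304-PDAC 2 (adjusted p = 0.0664).

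C1qb had 188, 112 and 149 CPM with vehicle, 176, 142 and 235 with 6-OHDA and 259, 267 and 236 with BIBO3304. In seeded lungs there were 93.5 and 111 under vehicle, 84.6 and 105 under 6-OHDA, and 76.2 and 79.3 under BIBO3304. Every seeded sample lay below every unseeded sample of any group, but narrowly. The highest seeded sample, vehicle-PDAC 2 with no cancer cells, had 111 CPM against 112 in vehicle 2. Under vehicle C1qb did not pass the threshold. C1qb fell with seeding under BIBO3304 by 1.70 (SE 0.269, adjusted p = 0.000255) and under 6-OHDA by 0.93 (SE 0.258, adjusted p = 0.0259). The first call held in all 11 alternatives and the second was lost in 5, among them with no gene filter (adjusted p = 0.170) and without 6-OHDA 3 (0.111), 6-OHDA-PDAC 1 (0.262) or 6-OHDA-PDAC 2 (0.119).

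C1qc had 150, 170 and 79.8 CPM with vehicle, 88.1, 147 and 76.9 with 6-OHDA and 138, 143 and 129 with BIBO3304. The seeded lungs had 59.1 and 86.3 under vehicle, 59.9 and 43.6 under 6-OHDA, and 66.3 and 52.5 under BIBO3304. The seeded drug samples lay below the unseeded samples of their arm, and vehicle-PDAC 2 overlapped the vehicle samples. C1qc fell with seeding under BIBO3304 by 1.21 (SE 0.328, adjusted p = 0.0150) and under 6-OHDA by 1.05 (SE 0.318, adjusted p = 0.0408). Leaving out BIBO3304-PDAC 2 ended the first call (adjusted p = 0.199), and leaving out 6-OHDA 2 (0.268), 6-OHDA-PDAC 1 (0.109) or 6-OHDA-PDAC 2 (0.360), or using no gene filter (0.103), ended the second.

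**Figure D2:**
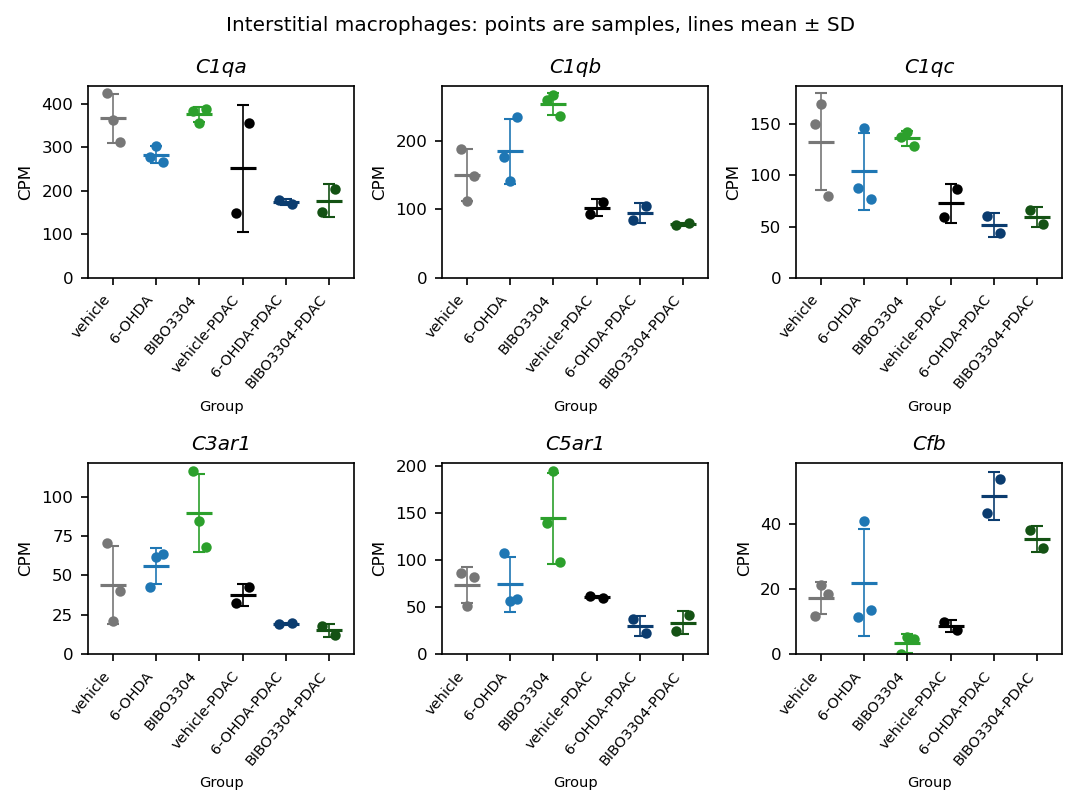
Levels of 6 members in interstitial macrophages by group. Points are samples, horizontal lines are means and bars are SD (n = 3 without and 2 with PDAC cells), on a CPM axis that starts at 0. C1qb is below every unseeded sample in all seeded samples, though only narrowly in vehicle-PDAC 2. Cfb is highest in the 6-OHDA-PDAC samples at 43.3 and 53.8 CPM.

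Both receptors fell in the same cells with seeding under each drug. C3ar1 had 70.4, 21.2 and 39.9 CPM with vehicle, 42.6, 61.5 and 63.3 with 6-OHDA and 116, 84.5 and 67.8 with BIBO3304. After seeding the levels were 32.5 and 42.4 under vehicle, 19.1 and 19.8 under 6-OHDA, and 18.2 and 12.4 under BIBO3304. The drug-treated seeded samples lay below all others. C3ar1 fell with seeding under BIBO3304 by 2.58 (SE 0.409, adjusted p = 0.000275), which is 5.96-fold lower and held in all 11 alternatives, and under 6-OHDA by 1.51 (SE 0.375, adjusted p = 0.0134). Under vehicle its log2 fold change was -0.28 (adjusted p = 0.896). The 6-OHDA call was lost without 6-OHDA 2 (adjusted p = 0.0655), 6-OHDA-PDAC 1 (0.120) or 6-OHDA-PDAC 2 (0.119).

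C5ar1 had 86.9, 51.5 and 82.4 CPM in interstitial macrophages with vehicle, 108, 56.3 and 58.8 with 6-OHDA and 140, 195 and 98.1 with BIBO3304. With PDAC cells it had 62.0 and 60.0 under vehicle, 37.8 and 22.5 under 6-OHDA, and 24.8 and 42.0 under BIBO3304. The drug-treated seeded samples were again the lowest. C5ar1 fell with seeding under BIBO3304 by 2.05 (SE 0.364, adjusted p = 0.000687), held in all 11 alternatives, and under 6-OHDA by 1.28 (SE 0.361, adjusted p = 0.0295), which was lost without 6-OHDA 1 (adjusted p = 0.185), 6-OHDA-PDAC 1 (0.0557) or 6-OHDA-PDAC 2 (0.322).

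In neutrophils, where C5ar1 was highest, no comparison passed, although with no gene filter C5ar1 was called lower with seeding under BIBO3304 (log2 fold change -1.45, edgeR adjusted p = 0.0208). The levels were 294, 214 and 386 CPM with vehicle, 357, 278 and 247 with 6-OHDA, 449 and 258 in vehicle-PDAC, and 362 and 396 in 6-OHDA-PDAC, where seeded and unseeded samples overlapped with vehicle and not with 6-OHDA. They were 485, 388 and 444 CPM with BIBO3304 and 232 and 188 in BIBO3304-PDAC, which do not overlap, and the log2 fold change was -1.07 (SE 0.348, edgeR adjusted p = 0.0535). In alveolar macrophages C5ar1 ran from 50.5 to 66.4 CPM with vehicle and was 77.2 and 75.5 in vehicle-PDAC, which do not overlap, but the difference of 0.36 on the log2 scale (SE 0.126, adjusted p = 0.620) did not pass, nor did it with vehicle-PDAC 1 alone (0.39, adjusted p = 0.233).

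The interstitial macrophages of the seeded drug groups also differed in markers and number. The summed level of 11 resident interstitial macrophage markers was 4057 to 4416 CPM with vehicle, 2351 to 3167 with 6-OHDA, 4998 to 7594 with BIBO3304, 2569 to 4263 in vehicle-PDAC, 885 to 1041 in 6-OHDA-PDAC and 1412 to 1963 in BIBO3304-PDAC, with none of the 11 at 0 in any of these samples. With seeding, 6 of the 11 fell under 6-OHDA and 8 of 11 under BIBO3304, Cd163 and Mrc1 among both. Of the markers of other types, the dendritic cell genes Clec10a, Zbtb46, Cd209a and Flt3 fell with seeding under 6-OHDA, as did Tcf4, Nr4a1, Col14a1, Kit and Ednrb, and Plet1 rose. Under BIBO3304 Siglech, Tcf4, Cd209a, Col14a1 and Ednrb fell and Plet1, Vcan and Ccr7 rose. The type's share of a sample's cells was 1.57% to 4.73% without PDAC cells, 3.86% and 3.18% in vehicle-PDAC, 13% and 9.75% in 6-OHDA-PDAC, and 3.92% and 9.58% in BIBO3304-PDAC. Of all genes tested in this type, 18% passed with seeding under BIBO3304 and 9.22% under 6-OHDA, against 6 of 8 and 4 of 8 members. The part of these markers and cell numbers in the results on the members was not tested.

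Cfb rose in interstitial macrophages with seeding under BIBO3304, where the C1q genes and receptors fell. It had 11.7, 21.2 and 18.6 CPM with vehicle, 11.4, 41.0 and 13.6 with 6-OHDA, and 0, 5.28 and 4.67 with BIBO3304. In the seeded groups Cfb had 9.84 and 7.31 under vehicle, 43.3 and 53.8 under 6-OHDA, and 38.1 and 32.5 under BIBO3304. All 4 drug-treated seeded samples lay above vehicle-PDAC, and those of 6-OHDA-PDAC above every other sample. Cfb rose with seeding under BIBO3304 by 3.31 (SE 0.645, adjusted p = 0.00145), held in all 11 alternatives. The 3 BIBO3304 samples held only 4 Cfb transcripts in all, and the ratio of pooled counts was 10.9 (95% exact counting interval 4.03 to 41.3, which covers counting error only).

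With PDAC cells in both groups, Cfb was higher in interstitial macrophages under 6-OHDA than under vehicle by 2.44 (SE 0.485, adjusted p = 0.00484, 5.44-fold, both samples above both), against 3.52% of all genes of that type. The call was lost without vehicle-PDAC 2 (log2 fold change 2.28, adjusted p = 0.0521) and without 6-OHDA-PDAC 2 (adjusted p = 0.0830). Under BIBO3304 the same comparison gave 1.98 (SE 0.518, adjusted p = 0.111), and 1.80 without vehicle-PDAC 2 (0.297). With seeding under 6-OHDA alone it gave 0.94 (adjusted p = 0.168).

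In alveolar fibroblasts Cfb and C3 rose with seeding under each drug. Cfb had 16.5, 16.2 and 18.9 CPM with vehicle, 13.8, 18.4 and 20.7 with 6-OHDA and 20.9, 19.6 and 17.6 with BIBO3304. With PDAC cells it had 41.5 and 19.1 under vehicle, 80.2 and 70.9 under 6-OHDA, and 46.4 and 59.5 under BIBO3304. The unseeded groups overlapped each other and none of the drug-treated seeded samples. Cfb rose with seeding under 6-OHDA by 2.10 (SE 0.242, adjusted p = 0.000256, 4.28-fold), the only 1 of the 6 calls in that comparison to hold in all 11 alternatives. Under BIBO3304 it rose by 1.42 (SE 0.243, adjusted p = 0.00258), with an adjusted p of 0.0584 without BIBO3304-PDAC 2. Under vehicle it was 0.86 higher (SE 0.252, adjusted p = 0.310), which did not pass with both seeded samples but did with vehicle-PDAC 1 alone (1.26, adjusted p = 0.00812).

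Between the seeded groups, Cfb in alveolar fibroblasts was higher under 6-OHDA than under vehicle by 1.26 (SE 0.252, adjusted p = 0.0393), against 0.261% of all genes of that type. Without vehicle-PDAC 2, the sample with no cancer cells, it was 0.86 (adjusted p = 0.216). It was also lost without 6-OHDA-PDAC 1 (adjusted p = 0.270) or 6-OHDA-PDAC 2 (0.362) and in a fit of the 2 groups alone (adjusted p = 0.190).

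C3 in alveolar fibroblasts had 343, 323 and 342 CPM with vehicle, 335, 429 and 378 with 6-OHDA and 471, 349 and 366.5 with BIBO3304. With PDAC cells it had 702 and 509 under vehicle, 614 and 819 under 6-OHDA, and 633 and 655 under BIBO3304. All 6 seeded samples lay above all 9 unseeded samples. C3 rose with seeding under 6-OHDA by 0.91 (SE 0.177, adjusted p = 0.0190) and under BIBO3304 by 0.70 (SE 0.178, adjusted p = 0.0200). Under vehicle it was 0.85 higher (SE 0.178, adjusted p = 0.135), and with vehicle-PDAC 1 alone 1.07 higher (adjusted p = 0.0177). The 6-OHDA call ended without 6-OHDA 1 (adjusted p = 0.0815), 6-OHDA 3 (0.0615), 6-OHDA-PDAC 1 (0.0529) or 6-OHDA-PDAC 2 (0.344). The BIBO3304 call ended without BIBO3304 2 (adjusted p = 0.0751), BIBO3304-PDAC 1 (0.0594) or BIBO3304-PDAC 2 (0.176).

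C4b in alveolar fibroblasts had 290, 246 and 254 CPM with vehicle, 221, 240.5 and 206 with 6-OHDA and 181, 146 and 172 with BIBO3304. With PDAC cells it had 300 and 242 under vehicle, 247 and 290 under 6-OHDA, and 344 and 321 under BIBO3304. The BIBO3304 samples were the lowest of all and those of BIBO3304-PDAC the highest. C4b rose with seeding under BIBO3304 by 1.0 (SE 0.150, adjusted p = 0.00131), in all 11 alternatives. Without PDAC cells it fell with BIBO3304 against vehicle by 0.66 (SE 0.136, adjusted p = 0.0263), against 1.24% of all genes of that type, and leaving out any of the samples but BIBO3304 1 raised the adjusted p to between 0.0508 and 0.119. Under vehicle and 6-OHDA the log2 fold changes with seeding were 0.04 and 0.27 (adjusted p = 0.984 and 0.464).

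**Figure D3:**
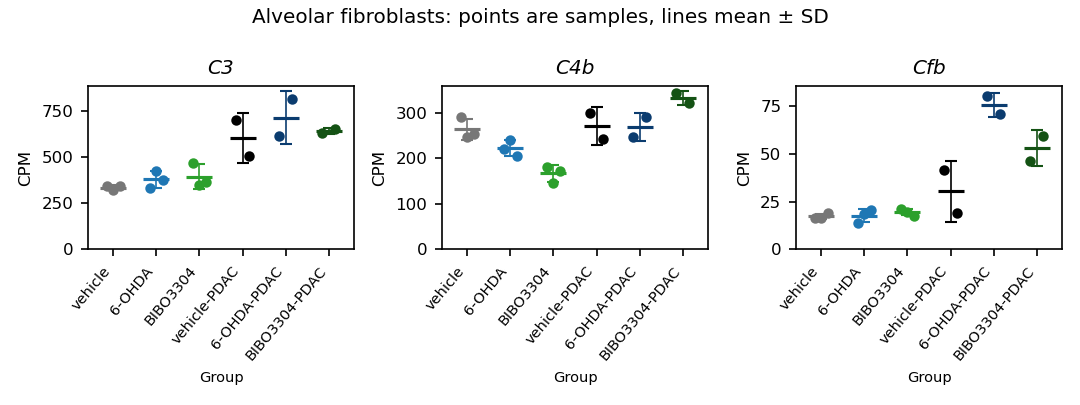
Levels of C3, C4b and Cfb in alveolar fibroblasts by group. Points are samples, horizontal lines are means and bars are SD (n = 3 without and 2 with PDAC cells), on CPM axes that start at 0. For C3 the seeded samples, from 509 to 819 CPM, lie above the unseeded ones, from 323 to 471, and for C4b the BIBO3304 samples are lowest.

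The other high types for these components showed no such call by edgeR with the gene filter. In alveolar macrophages, with no gene filter, Cfb was called lower with seeding under BIBO3304 (log2 fold change -1.69, edgeR adjusted p = 1.8e-13). The unseeded group there includes BIBO3304 2, which stood apart. DESeq2 called C4b in alveolar macrophages higher with seeding under BIBO3304 (2.06, DESeq2 adjusted p = 0.00562) and lower with BIBO3304 without PDAC cells (-1.62, 0.0171). In adventitial fibroblasts C3 had 1061 to 1241 CPM with vehicle, 1335 and 1355 in vehicle-PDAC, 969 and 1416 in 6-OHDA-PDAC, and 1312 and 1501 in BIBO3304-PDAC, and no comparison passed (lowest adjusted p 0.701). Mesothelial cells had 2342, 1827 and 2683 CPM of C3 with vehicle, and 3393 and 4790 in BIBO3304-PDAC against 2318, 1474 and 2428 with BIBO3304, where the log2 fold change was 0.98 (SE 0.327, adjusted p = 0.333). Whether the effect differs between the fibroblast types was not tested. In alveolar fibroblasts, 6 alveolar fibroblast markers summed to 3657 to 5138 CPM over the unseeded samples, 3430 to 3889 in vehicle-PDAC, 2683 to 2718 in 6-OHDA-PDAC and 2404 to 3242 in BIBO3304-PDAC. Mesothelial markers there summed to at most 5.95 CPM in any sample, and 5 adventitial fibroblast markers to 238 to 483 without and 250.2 to 513 with PDAC cells. The part of the lower alveolar fibroblast markers was not tested. Of all genes in this type, 9.95% passed with seeding under BIBO3304 and 1.16% under 6-OHDA.

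**Figure D4:**
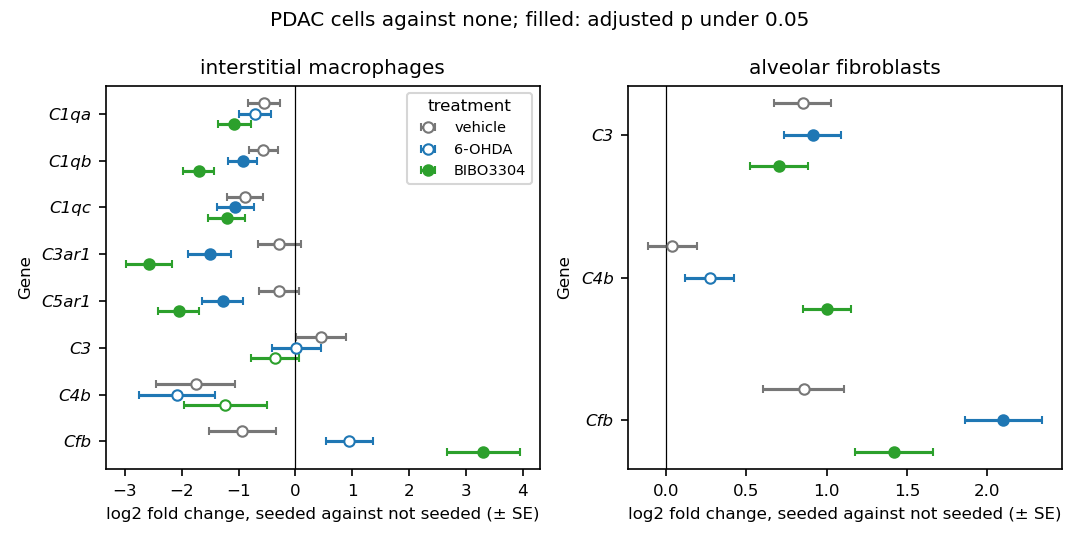
Log2 fold change of each member with PDAC cells against without, for each treatment, in interstitial macrophages (left) and alveolar fibroblasts (right). Points are edgeR estimates, bars are SE, and filled points have an adjusted p under 0.05. The C1q genes and receptors are left of 0 and Cfb right of 0 in the drug-treated interstitial macrophages, at 3.31 under BIBO3304.

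C3 also rose with seeding under BIBO3304 in 3 other types. In large-vessel endothelial cells it had 14.3, 8.57 and 13.1 CPM with BIBO3304 and 53.1 and 102 in BIBO3304-PDAC (log2 fold change 2.53, SE 0.523, adjusted p = 0.0472), where 0.12% of all genes passed. In general capillary cells it had 22.8, 16.3 and 34.2 against 46.8 and 114 CPM (1.62, SE 0.459, adjusted p = 0.0454). In alveolar type 2 cells, the surfactant-producing epithelium, it had 58.9, 67.6 and 64.2 against 103 and 146 CPM (0.93, SE 0.265, adjusted p = 0.0414). In each of the 3 types BIBO3304-PDAC 2 was the higher sample, and without it none passed (adjusted p = 0.705, 0.601 and 0.496). Leaving out any other sample of these groups also ended the large-vessel call (adjusted p from 0.0579 to 0.288). Without BIBO3304 1 or BIBO3304 2 the general capillary call ended (0.0815 and 0.170), as did the alveolar type 2 call (0.101 and 0.0845). Of all genes, 4.49% passed in general capillary and 4.99% in alveolar type 2 cells.

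C1q genes were called higher with seeding under BIBO3304 in monocytes, B cells and alveolar fibroblasts. The rise was not particular to these types. DESeq2 also called C1qa higher in alveolar macrophages (log2 fold change 3.14, DESeq2 adjusted p = 0.00605) and adventitial fibroblasts (3.87, 0.0336). With no gene filter edgeR also called it higher in alveolar type 2, dendritic and general capillary cells (3.77, 4.32 and 2.80). In monocytes, seeding under BIBO3304 raised C1qb from 0, 1.36 and 0 to 18.9 and 17.6 CPM, C1qa from 0, 0.454 and 1.75 to 2.36 and 31.3, and C1qc from 0, 0.909 and 3.49 to 9.45 and 17.6. Their log2 fold changes were 4.16, 4.52 and 3.31 (edgeR adjusted p = 0.0100, 0.0165 and 0.0492). In B cells C1qa went from 5.29, 2.08 and 0 to 40.0 and 46.0 CPM (3.90, adjusted p = 0.0219). In alveolar fibroblasts C1qa went from 3.06, 0.475 and 2.22 to 3.38 and 23.8 CPM (2.49, adjusted p = 0.0489) and C1qc from 2.12, 0.475 and 1.58 to 3.66 and 11.9 (2.25, adjusted p = 0.0294).

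These levels rest on few transcripts, and pairs so low in BIBO3304 could hardly come out lower with seeding. The 3 BIBO3304 samples together held 3 C1qb and 2 C1qa transcripts in monocytes and 3 C1qa transcripts in B cells. The ratios of pooled counts were 16 (95% exact counting interval 4.64 to 85.4), 24.0 (5.71 to 215) and 13.5 (4.18 to 69.5). C4b rose in monocytes in the same comparison, from 5.24, 1.36 and 3.49 to 14.2 and 19.6 CPM (2.64, SE 0.719, adjusted p = 0.0221). Of all genes, 9.04% passed in monocytes and 6.72% in B cells. All 7 of these calls in monocytes, B cells and alveolar fibroblasts were lost without BIBO3304-PDAC 2, at adjusted p between 0.127 and 0.816, and all but C1qb in monocytes also without BIBO3304 2, at adjusted p between 0.103 and 0.216.

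Over all types but interstitial macrophages, the summed C1q level, here without TMM scaling, was 5.35 to 10.4 CPM with vehicle, 7.34 to 11.2 with 6-OHDA, 2.10 to 4.63 with BIBO3304, 3.98 and 10.6 in vehicle-PDAC, 25.3 and 25.0 in 6-OHDA-PDAC, and 9.77 and 41.5 in BIBO3304-PDAC. The 3 samples above 20 were also those with the largest share of interstitial macrophages. C1qa made up 54.0% of C1q transcripts in interstitial macrophages, 57.2% in alveolar macrophages, 54.8% in alveolar fibroblasts, 54.4% in cancer cells, 61.4% in B cells and 44.7% in monocytes. Types with fewer transcripts spread wider, as with 40.6% of 32 in large-vessel endothelial cells and 71.1% of 38 in T cells. In BIBO3304-PDAC, B cells had a summed resident macrophage marker level of 516 to 590 CPM, with 0 of 11 markers at 0, against 72.9 to 167 with BIBO3304, where Folr2 was at 0. In monocytes it was 883 to 959 against 377 to 703 CPM, with Folr2 at 0 in the former. The part of free RNA and of mixed cells in these low levels was not tested.

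**Figure D5:**
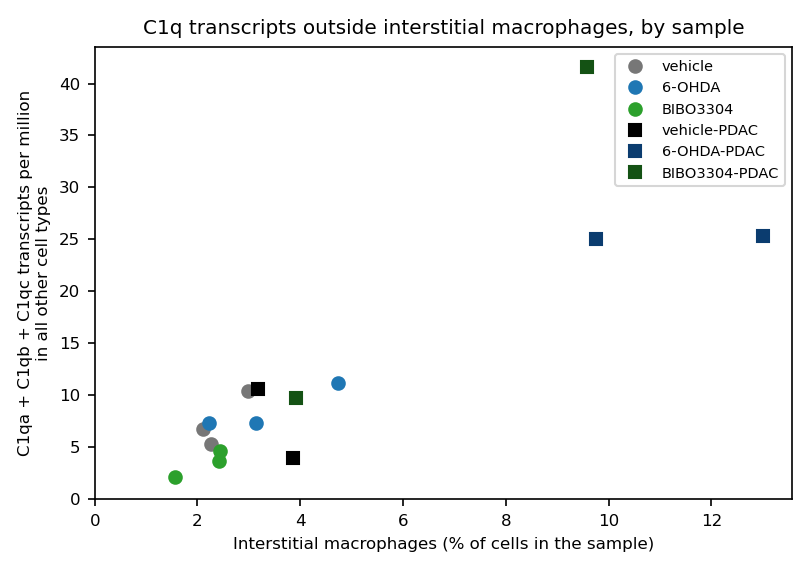
Summed level of C1qa, C1qb and C1qc in CPM, without TMM scaling, over all types but interstitial macrophages, against the share of interstitial macrophages among a sample's cells. Each of the 15 points is a sample, with circles for unseeded and squares for seeded samples. The 3 points at 25.0, 25.3 and 41.5 are 2 of 6-OHDA-PDAC and 1 of BIBO3304-PDAC.

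Where no member passed, the closest values were as follows. For 6-OHDA against vehicle without PDAC cells, the smallest p belonged to C4b in alveolar macrophages, at 4.35 ± 2.64 against 7.94 ± 0.811 CPM (SD, n = 3 each, log2 fold change -0.88, edgeR adjusted p = 0.451). C1qb in monocytes was read only in 6-OHDA samples, at 7.63, 4.78 and 0 CPM against 0 in each vehicle sample (adjusted p = 0.835), and C3 in NK cells had 11 ± 10.1 against 47.0 ± 36.5 CPM (SD, n = 3 each, edgeR adjusted p = 0.753). For BIBO3304 against vehicle with PDAC cells, C1qc in alveolar fibroblasts was 2.34 higher (SE 0.741, adjusted p = 0.266) and C3ar1 in interstitial macrophages had a log2 fold change of -1.31 (adjusted p = 0.258). For the difference of the 6-OHDA effect with seeding, Cfb in alveolar fibroblasts gave 1.24 (adjusted p = 0.377), C1qc there 2.85 (0.563) and Cfb in interstitial macrophages 1.88 (0.459). Without vehicle-PDAC 2 these 5 values were 2.61, -1.13, 0.83, 3.13 and 1.69 (adjusted p = 0.225, 0.481, 0.559, 0.562 and 0.698). Without vehicle-PDAC 1 the interaction for Cfb in alveolar fibroblasts passed (1.97, adjusted p = 0.0306).

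The other genes of the pathway, a list of 45 that were all in the matrix, were found in many types. Of the enzymes of the classical pathway, C1s1 and C1ra were highest in adventitial fibroblasts at 451 ± 67.4 and 259 ± 74.6 CPM, and C2 in mesothelial cells at 179 ± 50.9. Of the terminal components, C7 was highest in alveolar fibroblasts at 2273 ± 371 CPM and Hc, which encodes C5, in alveolar type 2 cells at 1012 ± 217. Of the regulators, Cfp, which encodes properdin, was highest in interstitial macrophages at 130 ± 59.7. Each mean is over 15 samples, or 14 for mesothelial cells, with its SD.

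Of the tests of these list genes, 25 of 211 passed with seeding under BIBO3304, 18 higher and 7 lower, against 4.25% of all tests (2.44% higher and 1.82% lower). Calr, called in several types, is among the higher ones. The median log2 fold change was 0.34 against -0.01 over all tests. Under 6-OHDA 4 of 198 passed, 3 higher and 1 lower, against 0.729% of all tests (median 0.11 against 0.00). Under vehicle 0 of 211 passed by edgeR, against 0.00176% of all tests, with 7 at an unadjusted p under 0.05 and 0 by DESeq2 (median 0.10 against 0.00). Over the members the medians were 1.22 under BIBO3304, 0.38 under 6-OHDA and 0.23 under vehicle. The first includes the member pairs with hardly any transcripts in the unseeded BIBO3304 samples.

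Under BIBO3304, Calr, the chaperone calreticulin that can bind C1q, rose with seeding in alveolar type 2 cells, monocytes and interstitial macrophages by 1.33, 1.14 and 1.14 (edgeR adjusted p = 0.00208, 0.00127 and 0.00102). Calr was also called higher in alveolar fibroblasts (1.02), aerocyte and general capillary cells, B, T and NK cells and neutrophils (1.79). Its rise was thus not particular to the types named first. C1ra rose in alveolar fibroblasts by 1.13 (adjusted p = 0.00569). Under 6-OHDA, C6 of the terminal pathway and Clu, which encodes the inhibitor clusterin, rose in alveolar fibroblasts by 1.36 and 1.43 (adjusted p = 0.0292 and 0.0399), and Itgax, a chain of complement receptor 4, rose in interstitial macrophages by 1.04 (adjusted p = 0.0399). Without 6-OHDA-PDAC 2 these 3 calls under 6-OHDA ended (adjusted p from 0.199 to 0.236), and without BIBO3304-PDAC 2 those of Calr in alveolar type 2 cells (0.204) and C1ra (0.0954).

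Between treatments few list genes passed. For 6-OHDA against vehicle without PDAC cells, Clu rose in large-vessel endothelial cells by 1.67 (edgeR adjusted p = 0.00819), the only 1 of 211 (0.0669% of all tests). The call was lost without vehicle 1 (adjusted p = 0.119). For BIBO3304 against vehicle 0 of 211 passed by edgeR without PDAC cells (0.307% of all tests), with 41 at an unadjusted p under 0.05 and 2 by DESeq2. With PDAC cells 0 of 211 passed (0.0317% of all tests), with 24 and 1. The effect of BIBO3304 differed with seeding for Cd55 in B cells (-1.93, edgeR adjusted p = 0.0492), 1 of 211 (0.413% of all tests). That call was lost in 9 of 16 alternatives, among them RLE factors (0.0504), the compared groups alone (0.0587) and the replicate block (0.0717). The effect of 6-OHDA differed with seeding for 0 of 198 (0.00744% of all tests), with 13 at an unadjusted p under 0.05 and 0 by DESeq2.

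Over the 22 cell types, the genes whose mean level was most like a member's were found by Pearson correlation of log2(mean CPM + 1) among 11644 genes with at least 20 CPM in a type. The types share samples and libraries, so these are descriptions. C1qa was closest to Cd163 (0.91), C1qb (0.88) and C1qc (0.88), C1qb to Cd163 (0.93), C1qa (0.88) and C3ar1 (0.81), and C1qc to Mmp12 (0.89), C1qa (0.88) and Pf4 (0.87). C3 was closest to Gpc3 (0.89), Mst1r (0.88) and Lvrn (0.86), C4b to Col14a1 (0.91), C1qtnf1 (0.91) and Gas1 (0.90), and Cfb to C3 (0.85), Fmod (0.82) and Lvrn (0.80). C3ar1 was closest to Serpinb2 (0.91), Ms4a7 (0.88) and Mmp12 (0.86), and C5ar1 to Cd33 (0.97), Cxcl2 (0.96) and Il1rn (0.96). With a pseudocount of 10 the closest gene changed for 5 members, to C1qc for C1qa (0.96), C1qa for C1qc (0.96), Mst1r for C3 (0.92), Gas1 for C4b (0.93) and Fmod for Cfb (0.89).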

How the data were processed

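The 16 GEO entries are sublibraries of 1 pool made by split-pool barcoding (Evercode WT v3) of sorted cells, per the labels' protocols. The deposited matrix holds raw transcript counts that the authors did not normalise: cell totals equalled the deposited total for 99.0% of cells. The deposited table gives each cell's sample, treatment, seeding state, type and percent of mitochondrial transcripts. Seeding, written there as IV, was read as PDAC cells seeded. Of the barcodes, 8740 recurred in several sublibraries and 0 in several samples. The submitters' processing notes list Seurat 5.3.0 and mm39. The sources used here do not give the aligner, counter or cell filters, and doublets were not called here.

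Counts were summed per sample and type (at least 20 cells), filtered with filterByExpr, scaled by TMM and fitted over all 6 groups with edgeR 4.0.16 in R 4.3.3. Summaries used pandas 2.3.3 and scipy 1.17.1 in Python 3.11.15. The procedure was tested on simulated data for some types and comparisons. It recovered 18% to 41% of 2-fold and 67% to 96% of 4-fold changes. A comparison without calls can therefore hold changes of 2-fold that were missed. Members passing the threshold of 0.05 in a type were named, or the 3 smallest p where none passed, with up to 6 pathway genes per comparison. Members and lists were chosen with earlier results of these data known. Alternatives were no gene filter, RLE factors, at least 50 cells, the compared groups alone, the sample number as a block, DESeq2 1.42.0, leaving out each sample, other thinning depths and, chosen after seeing the data, a crossed block. Promoters of 5 of 8 members matched a RefSeq table of GRCm38.p6. Values of 1 gene of the pathway list are not reported here, although it enters the list's counts and medians.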

Additional observations from a re-analysis of the deposited data

Results flagged for a closer look

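The effect of BIBO3304 differed between lungs with and without PDAC cells for 3 members, by the interaction term of the edgeR fit. Cfb in interstitial macrophages had an interaction of 4.24 on the log2 scale (SE 0.898, adjusted p = 0.0279), with 0, 5.28 and 4.67 CPM in BIBO3304 and 38.1 and 32.5 in BIBO3304-PDAC against 11.7 to 21.2 in vehicle and 7.31 to 9.84 in vehicle-PDAC. C3ar1 in the same cells had -2.30 (SE 0.559, adjusted p = 0.0482), with 67.8 to 116 CPM in BIBO3304 and 12.4 to 18.2 in BIBO3304-PDAC. C4b in alveolar fibroblasts had 0.96 (SE 0.215, adjusted p = 0.0433), with 146 to 181 CPM in BIBO3304 and 321 to 344 in BIBO3304-PDAC. Of all genes tested, 1.06% passed this test in interstitial macrophages and 0.752% in alveolar fibroblasts. The C4b call was lost in 13 of 16 alternatives, among them with DESeq2's size factors in edgeR (adjusted p = 0.0530), with no gene filter (0.0632), with the compared groups alone (0.106) and with the replicate block (0.0514). The C3ar1 call was lost in 9 of 16 and the Cfb call in 6 of 15. Without vehicle-PDAC 2, which held no cancer cells, the adjusted p were 0.0310 for Cfb, 0.0725 for C3ar1 and 0.0792 for C4b. Without BIBO3304-PDAC 2 they were 0.175, 0.358 and 0.157, and without BIBO3304-PDAC 1 0.0526, 0.0831 and 0.0712.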

How the results depend on the processing

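Over the 636 combinations of a named gene result and an alternative, 481 kept their direction and side of the threshold, 148 lost the call, 7 gained one and 0 changed direction. The 636 include named results that did not pass, which had no call to lose, so calls were lost at a higher rate than these numbers show. Calls that held in every alternative numbered 5 of 19 for seeding under BIBO3304, 1 of 6 under 6-OHDA, and 0 of the other 6. With no gene filter the member calls were 31 for seeding under BIBO3304, 3 under vehicle, 6 for BIBO3304 without PDAC cells, 1 with them, 4 for 6-OHDA with PDAC cells and 14 for the BIBO3304 interaction. For seeding under 6-OHDA that fit added calls, among them C4b lower in interstitial macrophages (-1.95, edgeR adjusted p = 6.4e-07). C4b was also called lower there with seeding under vehicle (-1.65, edgeR adjusted p = 0.00300) and BIBO3304 (-1.18, 0.0246). Its level in these cells was 90.7 ± 85.0 CPM (SD, n = 15), with 163 transcripts in 6-OHDA 2 alone. It tests members in more types, and shares of all genes called in the alternatives are not given here. These counts can therefore not be set against those with the filter. DESeq2 gave 2 for BIBO3304 without PDAC cells and 1 for seeding under vehicle. With the compared groups alone they were 10 for seeding under 6-OHDA, 2 for BIBO3304 without PDAC cells, 1 for 6-OHDA with PDAC cells and 1 for the BIBO3304 interaction. The causes were not tested. Leaving out a sample gave 5 to 17 for seeding under BIBO3304, 1 to 5 under 6-OHDA, 0 to 3 under vehicle, 0 to 1 for BIBO3304 without PDAC cells, 0 to 3 for 6-OHDA with PDAC cells, 0 to 1 for the 6-OHDA interaction and 0 to 7 for the BIBO3304 interaction. The 3 under vehicle and the 7 for the BIBO3304 interaction came without vehicle-PDAC 2. The lowest counts under BIBO3304 came without BIBO3304-PDAC 2 (5) and BIBO3304 2 (9), and where a group was left with 1 sample, it was assumed to vary like the others.

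In 3 cell types, deviations of same-numbered samples correlated from -0.27 to 0.35, with all 6 values for vehicle against vehicle-PDAC positive, so the numbers were not taken as pairing the samples. A shared day or batch was not tested. With that number as a replicate block, the calls were 1 for 6-OHDA with PDAC cells and 1 for the BIBO3304 interaction, and 18 and 6 for seeding under BIBO3304 and 6-OHDA. The block kept 17 of the 19 named calls under BIBO3304, without C1qa in B cells (adjusted p = 0.0600) and C1qc in monocytes (0.0878), and 5 of the 6 under 6-OHDA, without C1qb in interstitial macrophages (0.0502). Crossing the numbers of 6-OHDA-PDAC gave 2 for 6-OHDA with PDAC cells.

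Shares of cells depend on depth. Without thinning they were 32.6%, 22.4%, 17.3% and 8.47% for C1qa, C1qb, C1qc and C3ar1 in interstitial macrophages, and 81.9%, 60.1% and 32.1% for C3, C4b and Cfb in mesothelial cells. Thinned to 500 transcripts they were 53.1% and 27.3% for C3 and C4b in mesothelial cells and 16.4% for C5ar1 in neutrophils.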
